A study of Mus musculus with 18 samples.

Results

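Liver RNA of 18 mice was examined for the genes of cytochrome P450 families 1 to 3, the heme monooxygenases of drug, steroid and fatty acid metabolism. The members were the genes whose deposited symbol starts with *Cyp*, the family digit 1, 2 or 3, a subfamily letter and a gene number, without the *Cyp2b* subfamily and *Cyp2e1*. They came to 47 of the 15052 genes in the table, in 12 subfamilies: 13 in *Cyp2c*, 11 in *Cyp2d*, 8 in *Cyp3a*, 4 in *Cyp2a*, 3 in *Cyp2j*, 2 in *Cyp1a*, and 1 each in *Cyp1b*, *Cyp2f*, *Cyp2g*, *Cyp2r*, *Cyp2s* and *Cyp2u*. Of the 47, 3 are named as pseudogenes. GENCODE release M21 names 54 protein-coding genes under the same rule, and 43 of them were listed.

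The mice came from the chronic-plus-binge model of alcohol feeding and formed 4 groups: pair-fed WT (n = 4), pair-fed *Apoe* KO (n = 5), EtOH-fed WT (n = 5) and EtOH-fed *Apoe* KO (n = 4, mice 1, 2, 4 and 5). All were 10 to 12 weeks old and had 5 days on liquid control diet, then 10 days on a Lieber-DeCarli diet that held 5% (v/v) ethanol for the EtOH-fed groups or an isocaloric control for the pair-fed groups. On day 11 the EtOH-fed mice received 5 g/kg ethanol and the pair-fed mice 9 g/kg dextrin-maltose by gavage, and the livers were taken 9 h later. According to the methods, WT mice were C57BL/6J and the *Apoe* KO mice a purchased line that lacks *Apoe* in every cell type, so that no effect can be assigned to 1 cell type. The labels give all mice as female, whereas the methods name both sexes.

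P450 enzymes of these families sit in the membrane of the endoplasmic reticulum, take electrons from POR and oxidize drugs, steroids, bile acids and fatty acids. In the liver they are made mainly by hepatocytes, many of them near the central vein, and the nuclear receptors CAR (*Nr1i3*) and PXR (*Nr1i2*) and the aryl hydrocarbon receptor (*Ahr*) raise the transcription of different members. Several mouse members are sex-biased under the control of growth hormone, with *Cyp3a16*, *Cyp3a41a*, *Cyp3a41b*, *Cyp3a44*, *Cyp2c40* and *Cyp2a4* predominant in females and *Cyp2d9* in males.

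Values are the authors' read counts per gene, scaled to a nearly common total of 32267493 to 32292618 per mouse and rounded, so the totals do not show the depth. Where the spacing of low values could be read (11 of 18 mice), the depth was between 5.54 and 29.0 M reads. In the other 7 every whole number from 1 to 99 occurred, so no spacing could be read. Without gaps, 1 read stands for about 1 unit or less, which puts their depth near or above the totals. They were EtOH-fed WT mice 1, 2, 3 and 5, EtOH-fed *Apoe* KO mouse 1 and pair-fed *Apoe* KO mice 2 and 5. Depth was not even between groups. On EtOH it was 13.4, 7.82 and 8.15 M in *Apoe* KO mice 2, 4 and 5, and in WT mice only mouse 4 could be read (24.5 M). The part of depth in the differences of low genes was not tested. *Apoe* was 611230 to 798431 in the 9 WT mice and 8586 to 108651 in the 9 *Apoe* KO mice, without overlap. EtOH-fed *Apoe* KO mouse 1 stood apart from its label, with *Xist* at 826 against 15227 to 30379 in the other mice, and *Ddx3y* of the Y chromosome at 1077 against 2 to 118. The calls that involve this mouse were therefore also tested without it. *Alb* lay between 1547096 and 3032672 in all mice. In these bulk samples, fewer cells of a type and less RNA per cell cannot be told apart.

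Reads of close relatives may have been split between members. Among the 46 members with a GENCODE transcript model, 18 shared at least 20% of their 50-base stretches with transcripts of other genes, led by *Cyp3a41a* (98.6%), *Cyp3a41b* (93.5%) and *Cyp2c40* (60.3%), and 18 shared less than 5%. *Cyp2d13* has no model in that release, and therefore no length and no position here.

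Together the 47 members took 1.42% ± 0.132 (SD, n = 4) of the summed value in pair-fed WT, 1.66% ± 0.178 (n = 5) in pair-fed *Apoe* KO, 1.70% ± 0.235 (n = 5) in EtOH-fed WT and 1.96% ± 0.126 (n = 4) in EtOH-fed *Apoe* KO livers. Per kb of exon, the highest levels over 18 mice were those of the coumarin and nicotine hydroxylase *Cyp2a5* (41319 per kb), its near copy *Cyp2a4*, a testosterone hydroxylase (33040 per kb), *Cyp2d26* (18430 per kb) and the main inducible PXR target *Cyp3a11* (12976 per kb). The lowest were *Cyp1a1* (5.78 per kb), *Cyp2d34* (6.80 per kb) and *Cyp2s1* (10.0 per kb). *Cyp2a* genes made up 33.1% of the summed value of the members, *Cyp2c* 25.2%, *Cyp3a* 17.8% and *Cyp2d* 15.4%. Listed at 0 in 1 mouse each were *Cyp1a1*, *Cyp2c55*, *Cyp2d11* and *Cyp2d41-ps*.

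**Figure D1:**
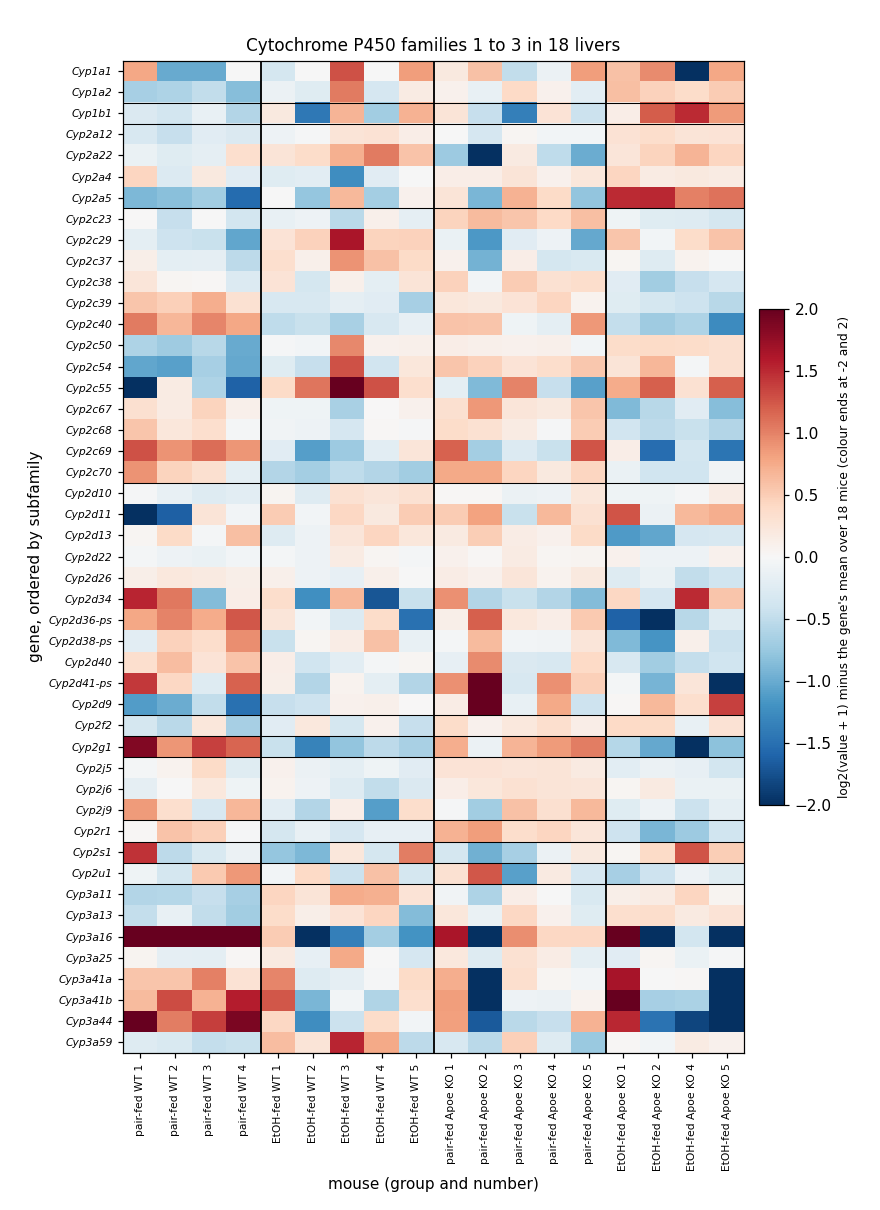
Each square is log2(value + 1) of 1 member in 1 mouse minus the mean of that gene over the 18 mice, with the colour ending at −2 and 2; mice are grouped by diet and genotype and genes by subfamily. The *Cyp3a16*, *Cyp3a44* and *Cyp2g1* rows are red in the 4 pair-fed WT mice, the *Cyp2a5* row is reddest with EtOH in *Apoe* KO mice, and *Cyp2d9* is highest in pair-fed *Apoe* KO mouse 2.

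EtOH feeding moved members in both directions in both genotypes. In WT mice, 10 members rose and 9 fell (adjusted p under 0.05 by limma with Benjamini-Hochberg adjustment over all 15052 genes), against 6.19% of all genes that rose and 6.52% that fell. In *Apoe* KO mice 7 rose and 14 fell, against 16.3% of all genes that rose and 6.92% that fell, and without mouse 1 the counts were 7 and 15. Of the 21 calls made with all mice, 20 held without mouse 1 and all 21 kept their direction, the exception being *Cyp2d38-ps* (log2 −0.64, limma adjusted p = 0.0900). Without it the log2 rises were 0.40 for *Cyp1a2*, 1.53 for *Cyp1b1*, 1.28 for *Cyp2a5*, 0.38 for *Cyp2a12*, 1.42 for *Cyp2a22*, 0.82 for *Cyp2c29* and 0.28 for *Cyp2c50*. Of the falls, *Cyp2d36-ps* was then at −1.48, *Cyp2c40* at −1.21, *Cyp2r1* at −1.19 and *Cyp2j5* at −0.46. The median log2 fold change of the members was −0.15 in WT (all genes −0.011) and −0.14 in *Apoe* KO mice (all genes 0.13). With median-of-ratios size factors instead of the common total, the median over all genes in the *Apoe* KO comparison moved by −0.13, the share of higher genes among all calls went from 70.1% to 50.4%, and the members called were 4 higher and 16 lower.

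Members higher after EtOH in both genotypes were *Cyp1a2*, *Cyp2a12*, *Cyp2a22*, *Cyp2c29* and *Cyp2c50*, and those lower in both were *Cyp2c39*, *Cyp2c40*, *Cyp2c70*, *Cyp2d36-ps* and *Cyp2g1*. None was called in opposite directions. A further 9 members passed the test in WT mice alone and 11 in *Apoe* KO mice alone, while 17 passed it in neither. A difference between the genotypes themselves passed the test of interaction for *Cyp2c23* and *Cyp2c38* (below 0 for both), so that 2 of 47 members had a lower and 0 a higher response in *Apoe* KO mice, against 0.239% and 2.6% of all genes. At an unadjusted limma p under 0.05, 1 member was higher in that test (*Cyp2d34*). With size factors, 5 members were lower.

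**Figure D2:**
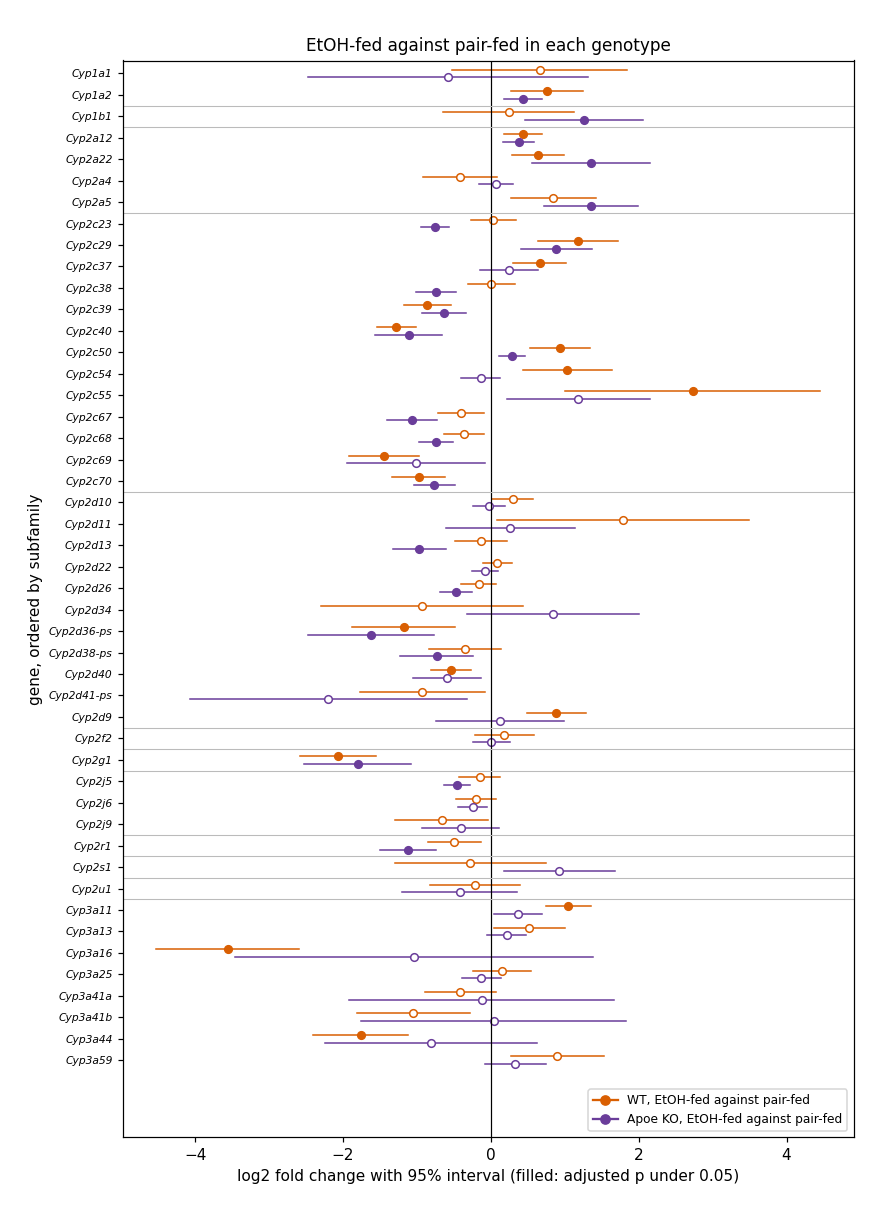
Log2 fold change of EtOH-fed against pair-fed mice with its 95% interval, for the 47 members in WT (orange) and *Apoe* KO mice (purple); filled points have an adjusted p under 0.05. *Cyp3a16* has the lowest point in WT (−3.56), and the *Cyp3a16* interval in *Apoe* KO mice spans 0.

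In the *Cyp1* families, *Cyp1a2*, the caffeine and arylamine oxidase that AhR controls, was higher after EtOH. Its values were 10049, 10377, 11348 and 8908 in pair-fed WT mice and 14778, 13543, 32702, 12710 and 17987 in EtOH-fed WT mice. The groups did not overlap, and EtOH-fed WT mouse 3 was far above the rest. The log2 fold change was 0.76 (SE 0.22, limma adjusted p = 0.041), and 0.53 (limma adjusted p = 0.0221) without mouse 3. In *Apoe* KO mice *Cyp1a2* was 16963, 14385, 21014, 16917 and 13859 on the control diet and 24282, 21936, 20576 and 22628 after EtOH, a log2 fold change of 0.44 (SE 0.12, limma adjusted p = 0.0173). These groups overlapped by 1 mouse, and with size factors the change was 0.31 (limma adjusted p = 0.116). *Cyp1b1*, which oxidizes estrogens and is made largely outside hepatocytes, rose in *Apoe* KO mice from 76, 46, 24, 77 and 47 to 70, 148, 180 and 115, with overlap and a log2 fold change of 1.26 (SE 0.37, limma adjusted p = 0.0256). *Cyp1a1*, the inducible AhR target, stayed between 0 and 33 in all mice and passed no test.

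In the *Cyp2a* subfamily, *Cyp2a5* was highest in EtOH-fed *Apoe* KO mice. Its values were 37726, 39381, 43355 and 24270 in pair-fed WT mice, 69715, 41173, 110198, 43982 and 74349 in EtOH-fed WT mice, 83943, 37517, 113788, 91918 and 40543 in pair-fed *Apoe* KO mice, and 197747, 201299, 141505 and 149378 in EtOH-fed *Apoe* KO mice. All 4 EtOH-fed *Apoe* KO mice lay above the 14 others. On EtOH, *Cyp2a5* was 2.68-fold higher in *Apoe* KO than in WT mice (log2 1.42, SE 0.26, limma adjusted p = 0.00816), and without mouse 1 the log2 value was 1.35 (limma adjusted p = 0.0234). After EtOH it rose 2.55-fold in *Apoe* KO mice (log2 1.35, SE 0.30, limma adjusted p = 0.00558), and in WT mice the log2 value was 0.85 (SE 0.27, limma adjusted p = 0.0534). The responses of the genotypes differed by a log2 value of 0.50 (95% interval −0.41 to 1.42, limma adjusted p = 0.619).

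The neighboring *Cyp2a4* passed none of these tests, with log2 values of −0.42 for EtOH in WT mice, 0.07 for EtOH in *Apoe* KO mice and 0.62 for the genotype on EtOH (95% interval 0.17 to 1.07, limma adjusted p = 0.112). *Cyp2a4* and *Cyp2a5* share 38% and 37% of their 50-base stretches with other genes. The bases just upstream of the start of both genes (RefSeq, GRCm38.p6; *Cyp2a4* at chr7:26306942-26307168, plus strand, *Cyp2a5* at chr7:26835089-26835304, plus strand) are shown because these neighbors are nearly alike there (93.4% identical over 227 aligned positions) and gave different values. The aligned positions include gaps, which count as not identical: 212 bases were identical, and the *Cyp2a5* stretch holds 216 bases. Capitals mark GTTAAT, an arm of the HNF1 motif, on either strand.
Cyp2a4: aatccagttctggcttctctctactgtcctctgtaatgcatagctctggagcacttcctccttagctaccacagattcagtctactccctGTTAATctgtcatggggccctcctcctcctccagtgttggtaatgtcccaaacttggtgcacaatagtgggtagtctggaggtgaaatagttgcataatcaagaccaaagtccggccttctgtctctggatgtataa
Cyp2a5: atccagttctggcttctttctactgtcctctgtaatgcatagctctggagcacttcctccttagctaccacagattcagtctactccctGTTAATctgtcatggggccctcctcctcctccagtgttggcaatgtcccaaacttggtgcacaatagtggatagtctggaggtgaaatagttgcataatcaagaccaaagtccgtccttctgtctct
In 250-base windows upstream of starts, GTTAAT or its reverse complement occurred in 6.47% of 32536 RefSeq windows and in 6 of the 37 members with a window.

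*Cyp2a22* was higher after EtOH in both genotypes. Its values were 8355, 7739, 8098 and 11619 in pair-fed WT, 10952, 11816, 14985, 18867 and 13561 in EtOH-fed WT, 5551, 1630, 10423, 6441 and 4621 in pair-fed *Apoe* KO, and 10884, 12529, 14656 and 12339 in EtOH-fed *Apoe* KO mice. The diets overlapped in WT mice and not in *Apoe* KO mice. The change was a log2 value of 0.64 in WT (SE 0.16, limma adjusted p = 0.0227) and 1.36 in *Apoe* KO mice (SE 0.37, limma adjusted p = 0.0178). *Cyp2a12*, which hydroxylates testosterone and bile acids, rose by log2 0.44 (SE 0.12, limma adjusted p = 0.0271) in WT and 0.38 (SE 0.10, limma adjusted p = 0.0134) in *Apoe* KO mice, the latter being 0.25 (limma adjusted p = 0.129) with size factors.

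The *Cyp2c* subfamily, which oxidizes arachidonic acid and many drugs, was split. In WT mice 5 of 13 members rose and 4 fell after EtOH, against 6.19% and 6.52% of all genes. In *Apoe* KO mice 2 rose and 7 fell, against 16.3% and 6.92% of all genes. *Cyp2c29*, a CAR target, went from 21874, 18953, 18536 and 12231 to 30420, 34405, 78248, 34310 and 34590 in WT mice, again with mouse 3 far above the rest. The rise was 2.26-fold (log2 1.18, SE 0.25, limma adjusted p = 0.00909), and the log2 value was 0.93 without mouse 3 (limma adjusted p = 0.00423). In *Apoe* KO mice *Cyp2c29* went from 18299 ± 5946 (SD, n = 5) to 32673 ± 6067 (n = 4), a log2 change of 0.88 (SE 0.22, limma adjusted p = 0.0117). *Cyp2c55* was 0, 30, 17 and 8 in pair-fed and 35, 57, 110, 66 and 34 in EtOH-fed WT mice. This is the largest fitted rise in the family (log2 2.73, SE 0.80, limma adjusted p = 0.0404) but rests on low values. Where the spacing could be read, 1 read stood for 1.11 to 5.82 units. *Cyp2c37* rose in WT mice (log2 0.66, SE 0.17, limma adjusted p = 0.0206).

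*Cyp2c50* and its neighbor *Cyp2c54*, both arachidonic acid epoxygenases, were lowest in pair-fed WT mice. *Cyp2c54* was 2685, 2605, 3495 and 2713 in pair-fed WT, 4662, 3999, 13376, 4246 and 6475 in EtOH-fed WT, 8083, 7581, 6678, 7070 and 8017 in pair-fed *Apoe* KO, and 6589, 8698, 5359 and 6856 in EtOH-fed *Apoe* KO mice. The 4 pair-fed WT mice lay below all 14 others. The genotype difference on the control diet was 2.62-fold (log2 1.39, SE 0.10, limma adjusted p = 1.77e-05), and the change after EtOH was a log2 value of 1.04 (SE 0.28, limma adjusted p = 0.029) in WT and −0.14 (SE 0.12, limma adjusted p = 0.443) in *Apoe* KO mice. The interaction was −1.18 (SE 0.34, limma adjusted p = 0.0677), and without EtOH-fed WT mouse 3 it was −0.88 (limma adjusted p = 0.026).

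*Cyp2c50* had 11686, 11010, 12242 and 8923 in pair-fed WT, 17716, 17294, 34722, 19070 and 19197 in EtOH-fed WT, 19678, 19253, 19048, 19238 and 17264 in pair-fed *Apoe* KO, and 23140, 23280, 23229 and 22324 in EtOH-fed *Apoe* KO mice. Here too the pair-fed WT mice lay below all others, and the EtOH-fed *Apoe* KO mice were close together. Its log2 changes were 0.93 for EtOH in WT (SE 0.19, limma adjusted p = 0.00645), 0.28 for EtOH in *Apoe* KO (SE 0.08, limma adjusted p = 0.0235) and 0.79 for the genotype in pair-fed mice (SE 0.10, limma adjusted p = 0.00158). With size factors the change in *Apoe* KO mice was 0.16 (limma adjusted p = 0.266).

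*Cyp2c40*, a female-predominant gene, and *Cyp2c69* fell. *Cyp2c40* was 16872, 12982, 16167 and 14105 in pair-fed and 5784, 6060, 5255, 6583 and 7359 in EtOH-fed WT mice, and 12288, 12068, 7757, 7221 and 14967 in pair-fed and 5925, 5010, 5343 and 3437 in EtOH-fed *Apoe* KO mice. The diets did not overlap in either genotype. The log2 change was −1.28 (SE 0.12, limma adjusted p = 3.85e-05) in WT and −1.11 (SE 0.21, limma adjusted p = 0.00228) in *Apoe* KO mice. *Cyp2c69* changed by −1.45 (SE 0.22, limma adjusted p = 0.00114) in WT and −1.01 (SE 0.43, limma adjusted p = 0.108) in *Apoe* KO mice, where 3 pair-fed mice (7430, 9902 and 8770) were as low as EtOH-fed ones and the others were at 26972 and 28613. Without EtOH-fed *Apoe* KO mouse 1, *Cyp2c69* fell in *Apoe* KO mice (log2 −1.32, SE 0.44, limma adjusted p = 0.0483).

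The upstream bases of these members are shown because *Cyp2c50* rose while *Cyp2c40* and *Cyp2c69*, which are 86.8% identical there, fell (RefSeq, GRCm38.p6; *Cyp2c50* at chr19:40089429-40089678, plus strand, *Cyp2c40* at chr19:39812815-39813064, minus strand, *Cyp2c69* at chr19:39886800-39887019, minus strand). Gap positions count as not identical: *Cyp2c40* and *Cyp2c69* had 217 identical bases over 250 positions, and the *Cyp2c69* stretch holds only 220 bases. Capitals mark GTTAAT and AGTTCA, a form of the nuclear receptor hexamer, on either strand, and no marks overlap.
Cyp2c50: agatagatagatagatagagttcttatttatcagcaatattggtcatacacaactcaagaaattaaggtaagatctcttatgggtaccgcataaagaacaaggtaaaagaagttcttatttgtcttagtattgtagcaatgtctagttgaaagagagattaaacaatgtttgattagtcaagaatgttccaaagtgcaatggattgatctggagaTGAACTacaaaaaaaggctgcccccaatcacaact
Cyp2c40: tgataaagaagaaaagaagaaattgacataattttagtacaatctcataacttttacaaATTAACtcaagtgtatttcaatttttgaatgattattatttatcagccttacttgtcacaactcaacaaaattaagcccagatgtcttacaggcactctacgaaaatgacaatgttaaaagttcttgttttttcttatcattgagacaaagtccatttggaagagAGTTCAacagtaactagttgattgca
Cyp2c69: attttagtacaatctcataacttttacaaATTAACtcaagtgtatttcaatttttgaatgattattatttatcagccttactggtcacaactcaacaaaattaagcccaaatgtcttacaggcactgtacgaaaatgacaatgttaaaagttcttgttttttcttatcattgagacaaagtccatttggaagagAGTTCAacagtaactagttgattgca
AGTTCA or its reverse complement was in 11.8% of all windows and in 7 of 37 members.

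*Cyp2c70*, which makes the muricholic acids of mouse bile, also fell in both genotypes, from 24242, 17811, 16203 and 11428 to 8694, 8145, 9213, 8697 and 8033 in WT and from 21937, 22130, 17543, 14947 and 17546 to 11921, 9846, 9915 and 12419 in *Apoe* KO mice. The diets did not overlap in either genotype, and the log2 changes were −0.98 (SE 0.17, limma adjusted p = 0.0026) and −0.76 (SE 0.13, limma adjusted p = 0.00103). *Cyp2c39* fell by 0.86 and 0.63 on the log2 scale (limma adjusted p = 0.00271 and 0.00568). *Cyp2c67* and *Cyp2c68* fell in *Apoe* KO mice (log2 −1.07 and −0.75, limma adjusted p = 0.00045 and 0.000369), and *Cyp2c68* was also lower by genotype on EtOH (log2 −0.38, SE 0.10, limma adjusted p = 0.0481), which did not pass without mouse 1 (log2 −0.42, limma adjusted p = 0.0553).

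*Cyp2c23*, an epoxygenase of arachidonic acid, differed in its response between genotypes. It was 7422, 5338, 7352 and 5731 in pair-fed WT, 6655, 6903, 5061, 7950 and 6495 in EtOH-fed WT, 10017, 11418, 10894, 9726 and 11231 in pair-fed *Apoe* KO, and 6969, 6235, 6182 and 5794 in EtOH-fed *Apoe* KO mice. The 5 pair-fed *Apoe* KO mice lay above the other 13, which overlapped. The log2 change after EtOH was 0.03 (95% interval −0.27 to 0.34) in WT and −0.76 (SE 0.09, limma adjusted p = 8.81e-05) in *Apoe* KO mice, with an interaction of −0.79 (SE 0.17, limma adjusted p = 0.0151) that was −0.84 (limma adjusted p = 0.0121) without EtOH-fed *Apoe* KO mouse 1. The genotype difference in pair-fed mice was 0.73 (SE 0.11, limma adjusted p = 0.00517). *Cyp2c38* had an interaction of −0.75 (SE 0.20, limma adjusted p = 0.0483), with a change of 0.01 (95% interval −0.31 to 0.33) in WT and −0.75 (SE 0.12, limma adjusted p = 0.00105) in *Apoe* KO mice, and this interaction was lost without any of 13 of the 18 mice (range −0.85 to −0.66).

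**Figure D3:**
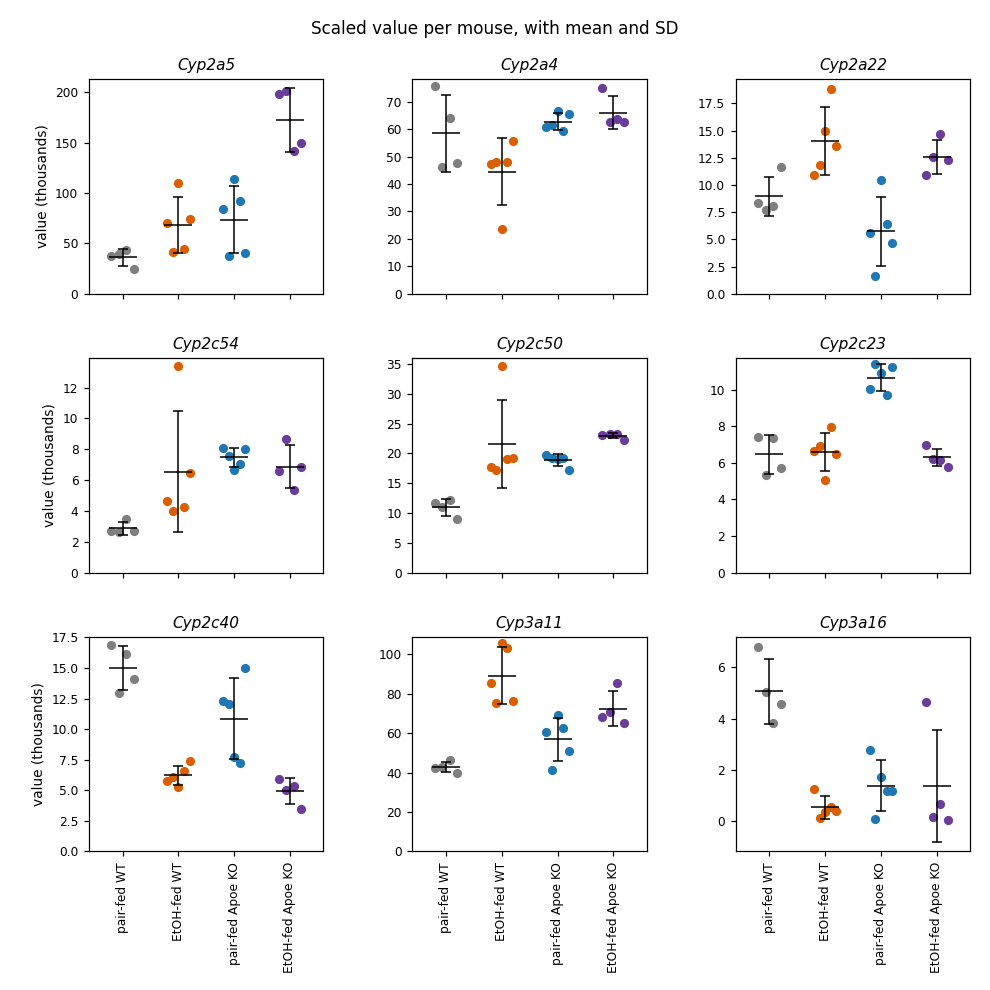
Value per mouse (the axis divides it by 1000) for 9 members in the 4 groups, with points for mice and bars for the mean and SD. All 4 EtOH-fed *Apoe* KO points of *Cyp2a5* lie above the rest, the 5 pair-fed *Apoe* KO points of *Cyp2c23* lie above the rest, and 1 EtOH-fed WT point (mouse 3) stands high for *Cyp2c54* and *Cyp2c50*.

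In the *Cyp2d* subfamily, relatives of the human debrisoquine hydroxylase, 1 of 11 members rose and 2 fell after EtOH in WT mice. That compares with 6.19% and 6.52% of all genes. In *Apoe* KO mice 0 rose and 4 fell, against 16.3% and 6.92% of all genes. *Cyp2d10* (log2 0.29 and −0.03 for EtOH in WT and *Apoe* KO mice) and *Cyp2d22* (0.08 and −0.08) passed no test, and neither did *Cyp2d11*, *Cyp2d34* and *Cyp2d41-ps*, which had low values. *Cyp2d26* fell in *Apoe* KO mice from 36315 ± 1892 (SD, n = 5) to 26286 ± 2791 (n = 4), a log2 change of −0.47 (SE 0.10, limma adjusted p = 0.00427). *Cyp2d13* was 15139, 18740, 14771, 14101 and 17301 in pair-fed and 6089, 6459, 10574 and 10601 in EtOH-fed *Apoe* KO mice, against 11181, 12430, 15788, 17888 and 15519 in EtOH-fed WT mice. The EtOH-fed *Apoe* KO mice were below both other groups, with log2 differences of −0.97 (SE 0.17, limma adjusted p = 0.00132) by diet and −0.82 (SE 0.19, limma adjusted p = 0.0287) by genotype. Without mouse 1 the genotype difference was −0.68 (limma adjusted p = 0.0711). *Cyp2d40* fell in WT mice (log2 −0.54, SE 0.12, limma adjusted p = 0.0126). The pseudogene *Cyp2d36-ps* fell in both genotypes (log2 −1.18 and −1.62, limma adjusted p = 0.0301 and 0.0102) and *Cyp2d38-ps* in *Apoe* KO mice (log2 −0.73, limma adjusted p = 0.0351), which did not pass without EtOH-fed *Apoe* KO mouse 1 (limma adjusted p = 0.0900).

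The male-predominant *Cyp2d9* was 1262, 1375, 1936 and 968 in pair-fed WT and 1990, 2046, 2883, 2930 and 2751 in EtOH-fed WT mice, a log2 rise of 0.89 (SE 0.19, limma adjusted p = 0.00788) without overlap. In *Apoe* KO mice it was 3007, 11098, 2452, 4630 and 2055 on the control diet and 2780, 4289, 3443 and 7056 after EtOH. Every *Apoe* KO mouse was above every pair-fed WT mouse, and pair-fed mouse 2 was the highest of all 18. The genotype difference in pair-fed mice was 1.49 (SE 0.38, limma adjusted p = 0.0571), and 1.11 (limma adjusted p = 0.029) without that mouse. In EtOH-fed mice it was 0.73 (SE 0.22, limma adjusted p = 0.0823), and 0.92 (limma adjusted p = 0.0348) without EtOH-fed *Apoe* KO mouse 1.

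Among the smaller *Cyp2* subfamilies, *Cyp2g1*, known for its expression in olfactory mucosa, fell most. It was 444, 228, 319 and 276 in pair-fed and 90, 48, 71, 85 and 78 in EtOH-fed WT mice, and 205, 113, 197, 222 and 250 in pair-fed and 82, 60, 25 and 69 in EtOH-fed *Apoe* KO mice. The diets did not overlap in either genotype (log2 −2.06, SE 0.24, limma adjusted p = 0.000172 in WT and log2 −1.80, SE 0.34, limma adjusted p = 0.0021 in *Apoe* KO mice). *Cyp2r1*, a vitamin D hydroxylase, was 394, 436, 312, 330 and 290 in pair-fed and 182, 129, 147 and 185 in EtOH-fed *Apoe* KO mice, without overlap. Its log2 change was −1.13 (SE 0.18, limma adjusted p = 0.000666), and −0.49 (SE 0.16, limma adjusted p = 0.0652) in WT mice. *Cyp2j5*, an epoxygenase, fell in *Apoe* KO mice from 16815 ± 460 (SD, n = 5) to 12264 ± 920 (n = 4; log2 −0.46, SE 0.08, limma adjusted p = 0.0018). *Cyp2f2*, which bioactivates naphthalene, *Cyp2j6*, *Cyp2j9*, *Cyp2s1* and *Cyp2u1* passed no test.

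In the *Cyp3a* subfamily, *Cyp3a11* rose in WT mice, and *Cyp3a16* and *Cyp3a44*, of the 4 female-predominant members, fell. *Cyp3a11* was 42047, 42771, 46089 and 39822 in pair-fed and 85139, 75348, 105470, 103161 and 76176 in EtOH-fed WT mice, which is a 2.07-fold rise without overlap (log2 1.05, SE 0.14, limma adjusted p = 0.000552). In *Apoe* KO mice it was 60383, 41183, 69203, 62530 and 50998 on the control diet and 68236, 70495, 85202 and 65307 after EtOH, with overlap and a log2 change of 0.36 (SE 0.15, limma adjusted p = 0.101), or 0.39 (limma adjusted p = 0.115) without mouse 1. The interaction of −0.69 (95% interval −1.12 to −0.25, limma adjusted p = 0.0873) did not pass the test. It did so without pair-fed *Apoe* KO mouse 2. *Cyp3a13*, *Cyp3a25* and *Cyp3a59* passed no test.

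*Cyp3a16* was 6799, 5030, 3827 and 4579 in pair-fed WT, 1270, 136, 345, 556 and 388 in EtOH-fed WT, 2775, 75, 1709, 1191 and 1195 in pair-fed *Apoe* KO, and 4628, 153, 688 and 65 in EtOH-fed *Apoe* KO mice. The pair-fed WT mice lay above every other mouse but EtOH-fed *Apoe* KO mouse 1, which was within their range. After EtOH *Cyp3a16* fell by 3.56 on the log2 scale in WT mice (SE 0.45, limma adjusted p = 0.000326), and the change in *Apoe* KO mice was −1.04 (SE 1.13, limma adjusted p = 0.544), or −2.19 (SE 0.99, limma adjusted p = 0.133) without mouse 1. *Cyp3a44* fell by 1.76 in WT mice (SE 0.30, limma adjusted p = 0.00243). In pair-fed mice *Cyp3a44* was lower in *Apoe* KO than in WT livers (2100, 371, 816, 862 and 1922 against 4760, 2428, 3113 and 4399, log2 −1.81, SE 0.40, limma adjusted p = 0.0368), and these groups did not overlap. Without EtOH-fed *Apoe* KO mouse 1 it was lower after EtOH in *Apoe* KO mice (log2 −1.66, limma adjusted p = 0.0223) and lower than in WT mice on EtOH (log2 −1.70, limma adjusted p = 0.0177), and with that mouse neither passed (log2 −0.81 and −0.85).

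The upstream bases of the *Cyp3a* members with opposite changes are shown for comparison (RefSeq, GRCm38.p6; *Cyp3a11* at chr5:145879965-145880104, minus strand, *Cyp3a16* at chr5:145469724-145469973, minus strand, *Cyp3a44* at chr5:145805875-145806124, minus strand). *Cyp3a16* and *Cyp3a44* were 92.9% identical, and *Cyp3a11* and *Cyp3a16* 47.6%, with gap positions counted as not identical. The *Cyp3a11* stretch holds 140 bases and was aligned end to end with the 250 of *Cyp3a16*. Of the 250 positions 119 were identical, so the 47.6% is held down by the unequal lengths. Capitals mark AGGTCA and AGTTCA, forms of the nuclear receptor hexamer, and TATAAA, the letters of the TATA motif, on either strand. No marks overlap. They are letter matches at any distance from the start, so a marked TATAAA need not be the TATA box of the gene.
Cyp3a11: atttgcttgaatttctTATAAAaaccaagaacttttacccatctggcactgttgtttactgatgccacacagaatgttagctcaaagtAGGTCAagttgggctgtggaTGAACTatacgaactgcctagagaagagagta
Cyp3a16: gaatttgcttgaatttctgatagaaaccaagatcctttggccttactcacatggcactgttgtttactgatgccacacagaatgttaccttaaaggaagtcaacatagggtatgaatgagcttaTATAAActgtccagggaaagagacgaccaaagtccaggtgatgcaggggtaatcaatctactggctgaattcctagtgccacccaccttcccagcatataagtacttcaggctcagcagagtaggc
Cyp3a44: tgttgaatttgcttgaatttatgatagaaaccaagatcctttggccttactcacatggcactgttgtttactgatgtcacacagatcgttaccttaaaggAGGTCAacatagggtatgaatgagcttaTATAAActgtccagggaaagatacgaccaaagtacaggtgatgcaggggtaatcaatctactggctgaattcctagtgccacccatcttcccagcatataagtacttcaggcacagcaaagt
AGGTCA was in 14% of all windows and in 9 of 37 members, and TATAAA in 12.3% of all windows and in 22 of 37 members, on either strand. TTCNNNGAA, the STAT5 motif, was in 7.04% of all windows and in 0 of 37 members, which says only that these letters are not in these windows.

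The female-predominant *Cyp3a* genes and *Cyp2d9* also varied within groups. The summed value of *Cyp3a16*, *Cyp3a41a*, *Cyp3a41b* and *Cyp3a44* was 16554, 13152, 13394 and 14388 in pair-fed WT, 9768, 3230, 4272, 5165 and 5910 in EtOH-fed WT, 10550, 950, 6531, 5443 and 6432 in pair-fed *Apoe* KO, and 19504, 3666, 4172 and 657 in EtOH-fed *Apoe* KO mice. The highest was EtOH-fed *Apoe* KO mouse 1, the mouse with low *Xist* and high *Ddx3y*. The lowest were EtOH-fed *Apoe* KO mouse 5 and pair-fed *Apoe* KO mouse 2, which had the highest *Cyp2d9* values (7056 and 11098) and *Xist* at 24027 and 21047. *Cyp3a41a* and *Cyp3a41b* passed no test. The sign of the genotype difference on EtOH turned with single mice, from −1.32 without *Apoe* KO mouse 1 to 0.37 without mouse 5 for *Cyp3a41a* and from −1.13 to 0.91 for *Cyp3a16*, and reads cannot be assigned between *Cyp3a41a* and *Cyp3a41b*. The part of sex, of genotype and of diet in this spread was not tested.

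**Figure D4:**
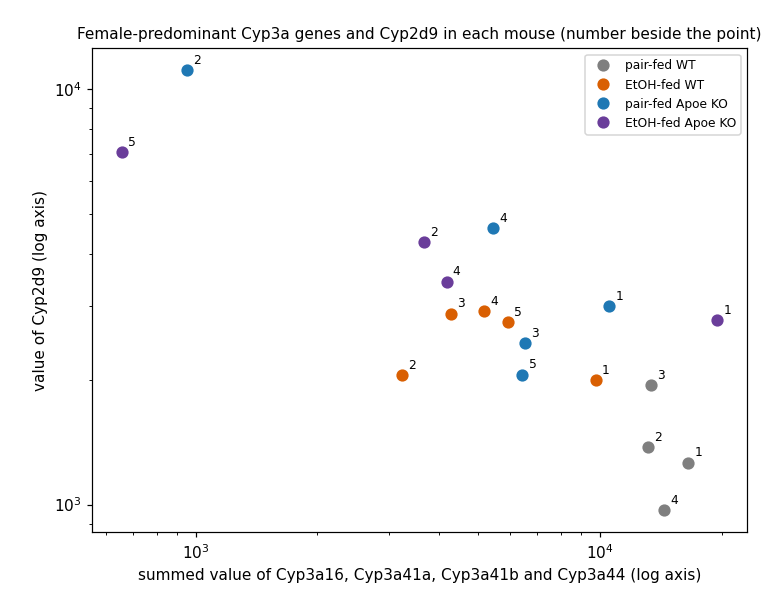
Summed value of 4 female-predominant *Cyp3a* genes (horizontal, log axis) against the value of *Cyp2d9* (vertical, log axis) in each mouse, with the mouse number beside the point and the group in colour. Pair-fed *Apoe* KO mouse 2 and EtOH-fed *Apoe* KO mouse 5 lie at the upper left with sums of 950 and 657, the pair-fed WT mice lie at the lower right, and EtOH-fed *Apoe* KO mouse 1 is farthest right.

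Between genotypes fewer members differed. In EtOH-fed mice 1 of 47 members was higher in *Apoe* KO (*Cyp2a5*) and 2 were lower (*Cyp2c68* and *Cyp2d13*), against 4.25% of all genes that were higher and 0.445% that were lower. Without EtOH-fed *Apoe* KO mouse 1 the counts were 2 higher (*Cyp2a5* and *Cyp2d9*) and 1 lower (*Cyp3a44*), and with size factors 1 and 4. The median log2 difference of the members was −0.16 and that of all genes 0.11, which size factors moved by −0.13, and the share of higher genes among all calls then went from 90.5% to 74.9%. In pair-fed mice 4 members were higher in *Apoe* KO (*Cyp1a2*, *Cyp2c23*, *Cyp2c50* and *Cyp2c54*) and 1 was lower (*Cyp3a44*), against 0.87% and 0.864% of all genes. *Cyp1a2* differed there by log2 0.70 (SE 0.12, limma adjusted p = 0.0138) without overlap. The comparisons of diet and of genotype share groups, and their values are not independent of each other.

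**Figure D5:**
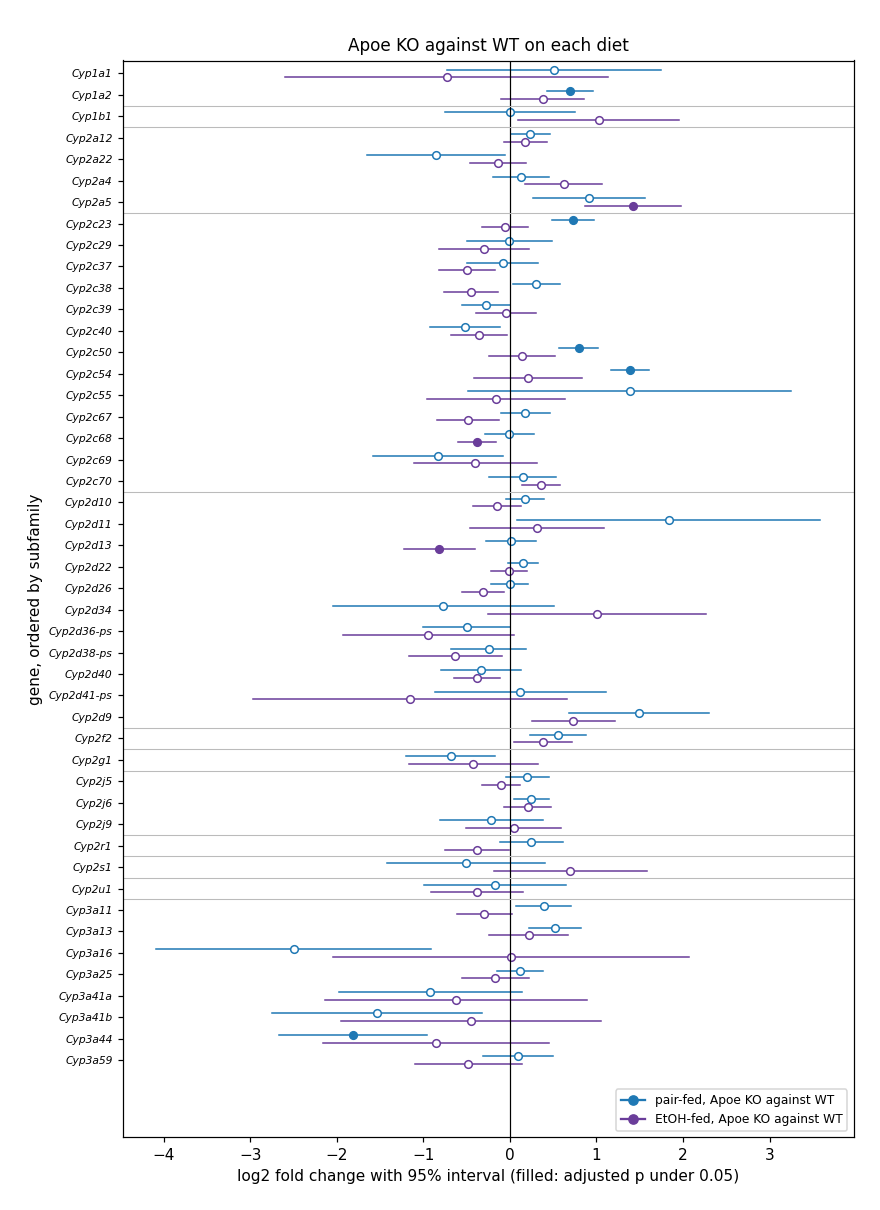
Log2 fold change of *Apoe* KO against WT mice with its 95% interval, for the 47 members in pair-fed (blue) and EtOH-fed mice (purple); filled points have an adjusted p under 0.05. *Cyp2c54* is the highest filled point in pair-fed mice (1.39) and *Cyp2a5* the only filled point above 0 in EtOH-fed mice (1.42).

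The genotype comparisons hold 7 members that lie within 20 Mb of *Apoe* on chromosome 7, namely the 4 *Cyp2a* genes, *Cyp2f2*, *Cyp2g1* and *Cyp2s1*. For these, the loss of *Apoe* and a different origin of the surrounding chromosome cannot be told apart. In EtOH-fed mice 1 of the 7 was called (*Cyp2a5*) and in pair-fed mice 0 (5 at an unadjusted limma p under 0.05). Among all 402 genes in that window, 28 (6.97%) were higher and 16 (3.98%) lower in EtOH-fed mice, against 4.25% and 0.445% of all genes. In pair-fed mice 12 (2.99%) were higher and 18 (4.48%) lower, against 0.87% and 0.864% of all genes.

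Markers of other liver cells moved with the groups. Over all genes, 6.19% rose and 6.52% fell after EtOH in WT mice, and 16.3% rose and 6.92% fell in *Apoe* KO mice. By genotype on EtOH, 4.25% of all genes were higher and 0.445% lower. The summed value of 7 Kupffer cell and macrophage markers was 8383 to 14509 in pair-fed WT, 8476 to 14853 in pair-fed *Apoe* KO, 5138 to 9660 in EtOH-fed WT and 12388 to 22546 in EtOH-fed *Apoe* KO mice. Of the 7, 7 were higher by genotype on EtOH. After EtOH 3 fell in WT mice (*Clec4f*, *Cd5l* and *Csf1r*) and 4 rose in *Apoe* KO mice (*Cd68*, *Clec4f*, *Vsig4* and *Csf1r*). None of these markers was listed at 0. The 9 hepatocyte markers summed to 2556308 to 3341340, 3062241 to 3980193, 2208660 to 3867005 and 2470633 to 3365696 in the same order, and the groups overlapped. Of these 9, 3 rose after EtOH in WT mice (*Tat*, *Cps1* and *Ass1*), and 1 rose (*Cps1*) and 1 fell (*Fgb*) in *Apoe* KO mice. Of 8 acute-phase genes, 4 were higher by genotype on EtOH (*Orm2*, *Saa2*, *Saa1* and *Lcn2*). Of 5 endothelial markers 4 rose after EtOH in each genotype, and of 6 stellate markers 5 rose in *Apoe* KO mice. Of 5 cholangiocyte markers 2 fell in WT and 1 rose in *Apoe* KO mice, and of 5 periportal markers 2 rose in *Apoe* KO mice. Of the 3 neutrophil and 5 lymphocyte markers listed, 0 were called by limma, and at an unadjusted p under 0.05 1 and 3 of them passed for diet in WT mice, 0 and 1 for diet in *Apoe* KO mice, 0 and 4 for genotype on the control diet (lymphocyte median log2 −1.21), 0 and 0 for genotype on EtOH, and 0 and 3 for the interaction. The part of these cells and genes in the *Cyp* values was not tested.

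Of 12 genes of heme synthesis and breakdown, 2 rose and 3 fell in WT mice and 3 rose and 5 fell in *Apoe* KO mice, against the shares of all genes given above (6.19% and 6.52% in WT, 16.3% and 6.92% in *Apoe* KO mice). *Alas1*, the first enzyme of heme synthesis, fell by 0.91 (SE 0.17, limma adjusted p = 0.00476) and 1.01 (SE 0.18, limma adjusted p = 0.00181) on the log2 scale, and the heme oxygenase *Hmox1* rose by 2.44 and 2.91 (limma adjusted p = 0.000209 and 0.000103). On EtOH, *Hmox1* was also higher in *Apoe* KO than in WT mice (log2 1.49, SE 0.32, limma adjusted p = 0.0194). *Por*, the electron donor, had log2 changes of 0.10 (SE 0.15) and 0.01 (SE 0.17), and of the 6 electron donors and partners 2 fell in WT mice (*Cyb5r3* and *Pgrmc2*) and 1 in *Apoe* KO mice (*Cyb5b*).

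Of the 7 xenobiotic receptors and partners that were listed, 1 fell in WT and 3 fell in *Apoe* KO mice, against 6.52% and 6.92% of all genes. *Nr1i3* fell in both (log2 −0.61 and −0.69, limma adjusted p = 0.00376 and 0.000745), *Nr1i2* changed by −0.27 (limma adjusted p = 0.149) and −0.36 (limma adjusted p = 0.0481), and *Ahr* by 0.07 and −0.31 (limma adjusted p = 0.814 and 0.0708). Of 7 targets of CAR and PXR that are not members, 3 rose in WT mice (*Cyp2b10*, *Gadd45b* and *Abcc3*) and 1 in *Apoe* KO mice (*Abcc3*). That compares with 6.19% and 16.3% of all genes. *Cyp2b10*, the classic CAR target, was 32 to 161 in pair-fed WT, 27 to 455 in pair-fed *Apoe* KO and 125 to 907 in EtOH-fed *Apoe* KO mice, and 3133, 4981, 20780, 6586 and 2731 in EtOH-fed WT mice, where mouse 3 was far above the rest. Of 5 AhR targets, *Ugt1a6a* fell in both genotypes (log2 −0.70 and −0.82) and *Nqo1* rose in *Apoe* KO mice (log2 0.94).

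The counts of the following lists stand beside these shares of all genes. After EtOH 6.19% rose and 6.52% fell in WT mice, and 16.3% rose and 6.92% fell in *Apoe* KO mice. By genotype 0.87% were higher and 0.864% lower on the control diet, and 4.25% and 0.445% on EtOH. Of 16 liver transcription factors, 1 rose and 5 fell in WT mice and 1 rose and 6 fell in *Apoe* KO mice. The clock output factors *Dbp*, *Tef* and *Hlf*, known to drive several *Cyp* genes, fell in both genotypes, *Dbp* by 1.89 and 2.18 on the log2 scale (limma adjusted p = 0.00481 and 3.74e-05). Of 9 regulators of growth hormone signaling, *Ghr* fell in *Apoe* KO mice (log2 −0.59). *Cux2*, a female-predominant regulator, was lower in *Apoe* KO than in WT mice on EtOH (log2 −1.33, SE 0.33, limma adjusted p = 0.0388). Among 12 female-biased liver genes outside these families, 1 rose and 5 fell after EtOH in WT mice, and 2 rose and 3 fell in *Apoe* KO mice. Among 10 male-biased genes 1 rose and 4 fell in WT and 1 rose and 3 fell in *Apoe* KO mice. By genotype, 3 of the 10 male-biased genes were higher in pair-fed *Apoe* KO mice (*Susd4*, *Mup20* and *Slco1a1*, log2 1.28, 0.83 and 1.96) and 2 on EtOH (*C6* and *Selenbp2*, log2 0.98 and 1.38). Of the female-biased genes, *Hao2* was lower in *Apoe* KO mice on both diets (log2 −1.58 and −1.73) and *Slc22a27* on EtOH (log2 −0.53). Of these genotype calls, those of *C6*, *Selenbp2* and, on the control diet, *Hao2* held without any 1 mouse. The part of sex-biased expression in the *Cyp2d9* and *Cyp3a* differences was not tested. Of 8 pericentral genes outside these families, 0 rose and 1 fell in WT mice (*Lgr5*, log2 −0.70). In *Apoe* KO mice 1 rose (*Rhbg*) and 3 fell, namely *Lgr5* (log2 −1.13), *Glul* (log2 −0.56, limma adjusted p = 0.00244) and *Rnf43*. The table also lists 29 cytochrome P450 genes that are not members, from other families and from *Cyp2b* and *Cyp2e1*. Of these, 6 rose in WT mice (*Cyp2b10*, *Cyp2b9* and *Cyp2b13* among them) and 3 fell. In *Apoe* KO mice 7 rose and 6 fell (*Cyp2e1* among the latter).

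Some calls rested on single mice. In WT mice the count of members higher after EtOH, 10, was 6, 5 and 6 without pair-fed WT mouse 1, 2 or 4. *Cyp1a2* lost its call without any 1 of 6 mice (pair-fed 1 to 4 and EtOH-fed 1 and 5), *Cyp2c55* without any of 5 (pair-fed 4 and EtOH-fed 1 to 4), *Cyp2a12* without any of 4 (pair-fed 1 and 2, EtOH-fed 3 and 4), *Cyp2d36-ps* without any of 4 (pair-fed 1, 2 and 4, EtOH-fed 3), *Cyp2c54* without any of 3 (pair-fed 1, 2 and 4), *Cyp2a22* without any of 3 (pair-fed 1 to 3) and *Cyp2c37* without pair-fed mouse 2 or 4. Their log2 changes over these fits were 0.53 to 0.87 for *Cyp1a2*, 1.71 to 3.36 for *Cyp2c55*, 0.39 to 0.49 for *Cyp2a12*, −1.33 to −0.87 for *Cyp2d36-ps*, 0.74 to 1.17 for *Cyp2c54*, 0.53 to 0.77 for *Cyp2a22* and 0.55 to 0.76 for *Cyp2c37*. The other 12 calls of that comparison held in every fit without 1 mouse.

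In *Apoe* KO mice, *Cyp2d38-ps* lost its call without any of 5 mice (pair-fed 2 and 5, EtOH-fed 1, 2 and 5, log2 −0.97 to −0.54), *Cyp1b1* without any of 4 (pair-fed 3, EtOH-fed 2, 4 and 5, log2 1.01 to 1.53) and *Cyp2c50* without pair-fed mouse 5 or EtOH-fed mouse 4 (log2 0.25 to 0.30), and the other 18 held. In EtOH-fed mice the genotype difference of *Cyp2c68* was lost without any of 8 of the 9 mice (all but WT mouse 3, log2 −0.44 to −0.35) and that of *Cyp2d13* without any of 5 (WT 3, 4 and 5, *Apoe* KO 1 and 2, log2 −0.94 to −0.68), so that between 0 and 2 members were lower, whereas *Cyp2a5* held (log2 1.27 to 1.62). In pair-fed mice the call of *Cyp3a44* was lost without any of 5 mice (WT 1, 2 and 4, *Apoe* KO 3 and 4, log2 −2.07 to −1.45) and that of *Cyp1a2* without WT mouse 2 (log2 0.61 to 0.76), while *Cyp2c23*, *Cyp2c50* and *Cyp2c54* held. *Cyp3a16*, with a log2 difference of −2.50 (SE 0.74, limma adjusted p = 0.0953), passed the test without pair-fed *Apoe* KO mouse 2 (log2 −1.62, limma adjusted p = 0.00379).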

How the data were processed

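Liver RNA was extracted with TRIzol and sequenced in 18 mice. According to the labels and the methods, the authors used FastQC, Trimmomatic, HISAT2 (GRCm38), SAMtools, featureCounts and DESeq2, and versions are not given in the sources used here. Strand settings in counting are not given either. The deposited table holds signal values, read counts per gene that the authors brought to nearly the same total in each mouse, by a step that is not stated, and rounded. It also holds columns of the authors' own comparisons (log2 fold changes with errors, p-values and adjusted p-values, and test and rank scores), which were deposited beside the values and were not used. The scaled values are not raw counts, so no count model was fitted. In 7 of 18 mice the depth could not be read from the spacing of low values, and it limits the precision of low genes.

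Of 15247 rows, 195 repeated a gene and were left out, which left 15052 genes, with a lowest mean value of 12.1 over all mice. No other filter on low values was used. Values were tested as log2(value + 1) with limma 3.58.1 in R 4.3.3 (trend and empirical Bayes moderation), each comparison in its own groups and the interaction of diet and genotype in all 18 mice, with Benjamini-Hochberg adjustment over all genes and a threshold of 0.05. Fold changes are on the log2(value + 1) scale. The added 1 shrinks changes of low genes, whereas a 0 in 1 mouse can enlarge or turn them. *Cyp1a1*, at 0 in EtOH-fed *Apoe* KO mouse 4, had means of 16.0 in pair-fed and 17.25 in EtOH-fed *Apoe* KO mice. Its fitted log2 change was −0.58. The limma p-values weigh a difference of group means against the spread between mice within groups, which is moderated over genes. Groups were taken from the labels. Tables and figures were made with Python 3.11.15, pandas 2.3.3, numpy 2.4.6, scipy 1.17.1 and matplotlib 3.10.9. The fits were tested on simulated data with known changes.

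The alternatives tried were a pseudocount of 10, a mean value of at least 50, median-of-ratios size factors, sample quality weights, the replicate number as a block, all 4 groups in one fit, and leaving out each mouse. Positions, lengths and shared 50-base stretches are from GENCODE M21 on GRCm38, which placed 15040 genes, and promoter windows from RefSeq on GRCm38.p6. Motifs were searched on both strands in the 250 bases before each start, and bases inside the GENCODE gene are not printed. The AhR core GCGTG was also searched and was in 28.3% of all windows and in 4 of 37 members. Named were all members that passed a test, the member of highest mean value in each subfamily, *Apoe*, *Por*, *Ahr*, *Nr1i2*, *Nr1i3*, *Alas1*, *Xist* and *Ddx3y*, and up to 4 called genes of each other list by smallest p. Other members were named where a contrast with a neighbor turned on them, and *Glul* and *Hlf* after their values were seen. The members and lists were chosen with earlier results of these data known.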

Additional observations from a re-analysis of the deposited data

Results flagged for a closer look

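In 15 of 188 groups (47 members in 4 groups) the highest or lowest mouse lay far from the others, by the ratio of its gap from the nearest mouse to the range of the group on the log2 scale (above Dixon's 95% critical value). Chance gives about 1 in 20 groups, or 9.4. EtOH-fed WT mouse 3 accounted for 4 of the 15, as the highest for *Cyp2c29* (0.864) and *Cyp2c50* (0.850) and the lowest for *Cyp2c67* (0.760) and *Cyp2a4* (0.809). It also had the highest *Cyp2b10* value of all mice (20780). Pair-fed *Apoe* KO mouse 2 accounted for 4, as the lowest for *Cyp3a16* (0.765), *Cyp3a41a* (0.769), *Cyp3a41b* (0.760) and *Cyp2a12* (0.737). The others were *Cyp2a4* in EtOH-fed *Apoe* KO mouse 1 (highest, 0.879), *Cyp2d34* in pair-fed *Apoe* KO mouse 1 (highest, 0.767), *Cyp1a1* in EtOH-fed *Apoe* KO mouse 4 (lowest, 0.924), *Cyp2c50* in pair-fed *Apoe* KO mouse 5 (lowest, 0.751) and in EtOH-fed *Apoe* KO mouse 5 (lowest, 0.856), *Cyp2c54* in pair-fed WT mouse 3 (highest, 0.862) and *Cyp3a13* in EtOH-fed WT mouse 5 (lowest, 0.765). The response to EtOH differed between genotypes by the test of interaction for *Cyp2c23* (log2 −0.79, SE 0.17, limma adjusted p = 0.0151) and *Cyp2c38* (log2 −0.75, SE 0.20, limma adjusted p = 0.0483).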

How the results depend on the processing

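None of the 50 member calls changed direction under an alternative, whereas members that passed no test could, as *Cyp3a16* and *Cyp3a41a* did by genotype on EtOH without single mice. With a mean value of at least 50 or a pseudocount of 10, all 49 and 50 calls that could be fitted kept their side of the threshold. Calls were lost for 3 of 50 with size factors, 3 with sample quality weights, 5 of 50 with the replicate block and 8 of 48 with all 4 groups in one fit, which gives no interaction. The cause was not tested. With size factors, 4 members rose after EtOH in *Apoe* KO mice, 4 were lower by genotype on EtOH and 5 were lower in the interaction. With sample quality weights, 2 were higher by genotype on EtOH and 1 was lower in the interaction. With all 4 groups in one fit, 1 was lower in EtOH-fed and 0 in pair-fed *Apoe* KO mice (*Cyp3a44* log2 −1.81, limma adjusted p = 0.106). In that fit the diet calls of *Cyp2a22*, *Cyp2d9* and *Cyp2d40* in WT mice did not pass (limma adjusted p = 0.194, 0.0944 and 0.0615). Nor did those of *Cyp1a2* and *Cyp2c50* in *Apoe* KO mice (0.107 and 0.186). The genotype calls of *Cyp2c68* on EtOH (0.0560) and *Cyp1a2* on the control diet (0.0656) were also lost. Leaving out 1 mouse at a time, 5 to 11 members rose and 8 to 11 fell in WT mice, 5 to 8 rose and 13 to 15 fell in *Apoe* KO mice, 1 to 2 were higher and 0 to 2 lower by genotype on EtOH, 3 to 6 and 0 to 2 on the control diet, and 0 to 0 and 1 to 3 in the interaction, and 70 of 468 such refits of single calls lost the call. The labels do not say that equal replicate numbers share a litter, batch or day. Deviations of equally numbered mice had mean correlations over genes of 0.135, 0.0152, 0.0358 and −0.0481 (genotype on EtOH and on control diet, diet in *Apoe* KO and in WT mice), and for genotype on EtOH 3 of 4 pairs were at 0.144 to 0.230 and the pair numbered 2 at −0.0242, with 6 of 8 mice correlating best with their own number, a hint from the data and not from the design. The numbers were not taken to pair the mice. With the replicate block, the calls of *Cyp2a12* in WT mice (limma adjusted p = 0.0674), *Cyp1b1* (0.0630), *Cyp2c50* (0.0539) and *Cyp2d38-ps* (0.0638) in *Apoe* KO mice and the *Cyp2c38* interaction (0.0746) did not pass, 4 members were higher and 6 lower by genotype on EtOH, 3 lower by genotype on the control diet and 1 higher in the interaction. Over all genes, the diet comparison in *Apoe* KO mice called 2446 higher and 1042 lower, and 1646 and 1617 with size factors. That in WT mice called 931 and 981, and 599 and 756 with the block. By genotype on EtOH 639 and 67 were called, against 379 and 127 with size factors, 961 and 122 with the block and 854 and 108 with all groups. On the control diet 131 and 130 were called, against 272 and 184 with weights and 189 and 203 with the block. For the interaction 392 and 36 were called, against 294 and 84 with size factors, 495 and 104 with the block and 380 and 62 with weights. Values under about 100, as for *Cyp1a1*, *Cyp1b1*, *Cyp2c55* and *Cyp2d34*, rest on few reads.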
